A study of Mus musculus with 60 samples.

Results

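The genes followed here drive the cell cycle and DNA replication. They are a list of 40 symbols, of which 39 had at least 1 probe set annotated to that single symbol, giving 90 probe sets, and all 39 were among the 13181 genes tested out of 18194 with a single-symbol probe set. Members were taken by symbol, and the list was chosen with earlier results of these data known. Ccnb1 was not analysed here. By the phase in which they chiefly act, 14 of those tested belong to G1, 10 to S and 15 to G2/M.

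RNA came from undifferentiated cells of 6 mouse embryonal carcinoma strains: the parental P19 cells, P19CL6, which is a subclone of P19, and 4 lines derived from P19CL6, which are CL6G26, CL6G36, CL6G45 and CL6G52. An embryonal carcinoma cell is a pluripotent tumour stem cell. The labels give all strains as male, C3H and embryonic, grown in the same serum-containing medium with no treatment that sets one apart; how these 4 sublines were derived from P19CL6 is not stated in the labels. Each strain has 5 biological replicates, each hybridised to an MOE430A and an MOE430B oligonucleotide array, 60 arrays in all; whether replicates were separate cultures is not stated, so a p-value here speaks only of the spread among these arrays, which may be technical.

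The median deposited signal of an MOE430A array lay between 30.2 and 53.4, and that of an MOE430B array between 10.6 and 16.5. Of 8 pluripotency markers, 6 (Pou5f1, Sox2, Nanog, Lin28a, Utf1 and Tdgf1) lay above the detection floor on all 30 arrays and Fut9 on 0. Of the 5 neural markers only Tubb3 did so, of the 5 fibroblast markers Col1a2 and Thy1, and of the 5 endoderm and 5 mesoderm or cardiac markers 0; Myh6, Tnnt2, Ttr, Sox1, Neurog1, Col3a1 and Postn were above it on 0 arrays. The normalized signals of the 5 neural markers summed to between 104 and 148 on a P19 array and between 119 and 177 on a P19CL6 array, and those of the 5 fibroblast markers to between 91.3 and 184 and between 71.4 and 113; their part in any result below was not tested.

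A dividing cell passes G1 when cyclin D with CDK4 or CDK6, and then cyclin E with CDK2, phosphorylate the retinoblastoma family of pocket proteins and release E2F transcription factors. E2F targets include the licensing factors that load the MCM helicase on origins, and later cyclins A and B with CDK1 carry the cell into mitosis, where the spindle checkpoint restrains CDC20 until chromosomes are attached. Pluripotent cells are known for a short G1 and rapid division.

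Reference promoters (RefSeq, GRCm38.p6, 250 bases before to 50 after a gene's start) were found for 31 of the members. Those for Ccnd1, Ccnd2, Ccne2, Rb1, Mcm4, Gmnn, Ccna2, Cdc25c and Aurkb were not used here. They were searched on both strands for the cell cycle homology region TTTGAA, the CCAAT box and the E2F sites TTTGGCGC and TTTCCCGC. TTTGAA lay in 8 of 13 G2/M promoters, 1 of 8 S promoters and 0 of 10 G1 promoters, against 18.1% of 27025 genes. CCAAT lay in 11 of 13 G2/M, 6 of 8 S and 3 of 10 G1 promoters, against 37.9% of all genes. TTTGGCGC was found in 4 of 8 S, 1 of 10 G1 and 0 of 13 G2/M promoters, against 0.537% of all genes, and TTTCCCGC in 3 of 8, 1 of 10 and 0 of 13, against 1.11%. Matches are descriptions of letters, and no measurement of binding was made. The 6 promoters below belong to members called in at least 1 of the comparisons that follow, with the limits given there. They are written 5′ to 3′ along the gene's strand, and capitals mark the searched motifs. Cdk1, at chr10:69352863-69353162 on the minus strand, holds TTTGAA at 2 places and CCAAT at 3. Cdc20, at chr4:118437294-118437593 (minus), and Aurka, at chr2:172370521-172370820 (minus), hold both motifs as well. Cdt1, at chr8:122567765-122568064 (plus), holds 1 E2F site. Mad2l1, at chr6:66534971-66535270 (plus), and Ccne1, at chr7:38107441-38107740 (minus), hold none of these letters.
Cdk1: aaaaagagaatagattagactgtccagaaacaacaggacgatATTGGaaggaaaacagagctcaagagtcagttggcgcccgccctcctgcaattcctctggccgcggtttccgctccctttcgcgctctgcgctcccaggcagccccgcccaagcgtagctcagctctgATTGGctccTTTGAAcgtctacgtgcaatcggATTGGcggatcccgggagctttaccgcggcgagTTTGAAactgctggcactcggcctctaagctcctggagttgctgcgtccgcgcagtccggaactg
Cdc20: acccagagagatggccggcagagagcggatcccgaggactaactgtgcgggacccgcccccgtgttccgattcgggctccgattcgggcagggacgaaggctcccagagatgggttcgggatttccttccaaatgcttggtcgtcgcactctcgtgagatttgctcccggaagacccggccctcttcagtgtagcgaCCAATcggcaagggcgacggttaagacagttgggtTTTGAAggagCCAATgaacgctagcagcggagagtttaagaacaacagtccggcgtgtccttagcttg
Aurka: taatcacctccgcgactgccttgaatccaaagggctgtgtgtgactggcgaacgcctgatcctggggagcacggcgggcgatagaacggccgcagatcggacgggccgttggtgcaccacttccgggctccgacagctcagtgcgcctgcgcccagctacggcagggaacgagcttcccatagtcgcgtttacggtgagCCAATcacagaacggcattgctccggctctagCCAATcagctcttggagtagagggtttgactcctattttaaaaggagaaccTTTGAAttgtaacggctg
Cdt1: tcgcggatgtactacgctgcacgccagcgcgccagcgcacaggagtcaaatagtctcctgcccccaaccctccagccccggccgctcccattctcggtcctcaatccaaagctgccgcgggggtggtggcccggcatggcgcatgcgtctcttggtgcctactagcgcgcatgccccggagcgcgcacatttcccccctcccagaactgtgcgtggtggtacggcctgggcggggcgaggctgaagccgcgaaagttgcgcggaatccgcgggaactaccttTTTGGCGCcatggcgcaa
Mad2l1: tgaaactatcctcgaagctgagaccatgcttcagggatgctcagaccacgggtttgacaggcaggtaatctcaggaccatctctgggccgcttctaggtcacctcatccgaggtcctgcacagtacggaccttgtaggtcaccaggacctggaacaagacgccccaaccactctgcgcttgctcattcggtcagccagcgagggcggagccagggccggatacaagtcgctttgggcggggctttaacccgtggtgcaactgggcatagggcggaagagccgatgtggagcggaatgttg
Ccne1: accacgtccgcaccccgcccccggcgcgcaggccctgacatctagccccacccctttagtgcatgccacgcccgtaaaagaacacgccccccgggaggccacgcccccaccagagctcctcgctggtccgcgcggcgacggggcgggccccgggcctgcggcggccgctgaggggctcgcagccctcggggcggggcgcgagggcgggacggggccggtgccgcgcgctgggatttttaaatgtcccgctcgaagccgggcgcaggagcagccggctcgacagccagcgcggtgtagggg

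Values below are log2 signals after quantile normalization within an array type, and a change is a difference of strain means with the standard error of the fit. A gene is called, and said to rise or fall, at a Benjamini-Hochberg adjusted p under 0.05 in limma. All member calls were small: none reached 2-fold in any of the 5 comparisons, beside 0.652% of all genes for P19CL6 against P19, 0.258% for CL6G26, 1.46% for CL6G36, 1.38% for CL6G45 and 0.501% for CL6G52. Each of the 4 sublines was set against the same P19CL6 arrays, which also enter the comparison with P19.

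In P19CL6 against P19, 6 of 39 members fell and 0 rose, where 1.89% of all genes tested fell, 2.57% rose and 4.46% were called. Those 6 were the G1 cyclins Ccnd1, Ccnd2 and Ccne1 and the mitotic genes Mad2l1, Aurka and Cdc20; no S-phase member was called. In CL6G36 against P19CL6, 5 members were called, 2 higher and 3 lower, beside 13.5% of all genes (6.83% higher and 6.72% lower). In CL6G45 against P19CL6, 10 were called, 6 higher and 4 lower, beside 13.3% (6.55% and 6.71%). In CL6G52 it was 1, higher, beside 3.18% (1.38% higher), and in CL6G26 it was 0 in limma, beside 1.24%. In CL6G26, 2 of 39 members and 1418 of the 13181 genes had an unadjusted p under 0.05.

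As shares, these are 15.4% of members for P19CL6 against P19, 12.8% for CL6G36, 25.6% for CL6G45 and 2.56% for CL6G52. Members are mostly bright genes: 35 of 39 lay above the floor on all 30 arrays. Among the 8454 genes that did so, 5.94% were called in P19CL6 against P19, 1.61% in CL6G26, 18.8% in CL6G36, 18.3% in CL6G45 and 4.13% in CL6G52. Of those 35 members it was 17.1%, 0%, 14.3%, 28.6% and 2.86% in the same order. Read against that background, the shares for P19CL6 against P19 and CL6G45 lie above it and those for CL6G36 and CL6G52 below it; no test of these shares was made. The median change of the 39 members was -0.08 in P19CL6 against P19, 0.03 in CL6G26, -0.08 in CL6G36, -0.03 in CL6G45 and 0.02 in CL6G52, and that of all genes tested was 0.01, -0.01, 0.00, 0.00 and -0.01.

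The calls depend on quantile normalization. On the scaling as deposited, limma called 0 members in each of the 5 comparisons, with 5, 4, 4, 4 and 1 at an unadjusted p under 0.05. The share of all genes at that unadjusted p was not counted on this scaling. Fewer genes of any kind were called there: 0.364% for P19CL6 against P19, 0.258% for CL6G26, 2.5% for CL6G36, 2.92% for CL6G45 and 1.3% for CL6G52. All 22 called member changes kept their sign, for example Ccnd1 at -0.77 in P19CL6 against P19, Cdk4 at 0.36 in CL6G36 and Cdkn1b at 0.72 in CL6G45. The median of all genes was then 0.13 in CL6G26, 0.12 in CL6G45 and 0.11 in CL6G52, and 36 of 39 members were higher in CL6G26, where 22 were higher after normalization. Of the genes called, 57.7% were higher in P19CL6 against P19 after normalization and 81.2% on the deposited scaling; for CL6G45 it was 49.4% and 66.8%, and for CL6G52 43.4% and 78.9%.

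**Figure D1:**
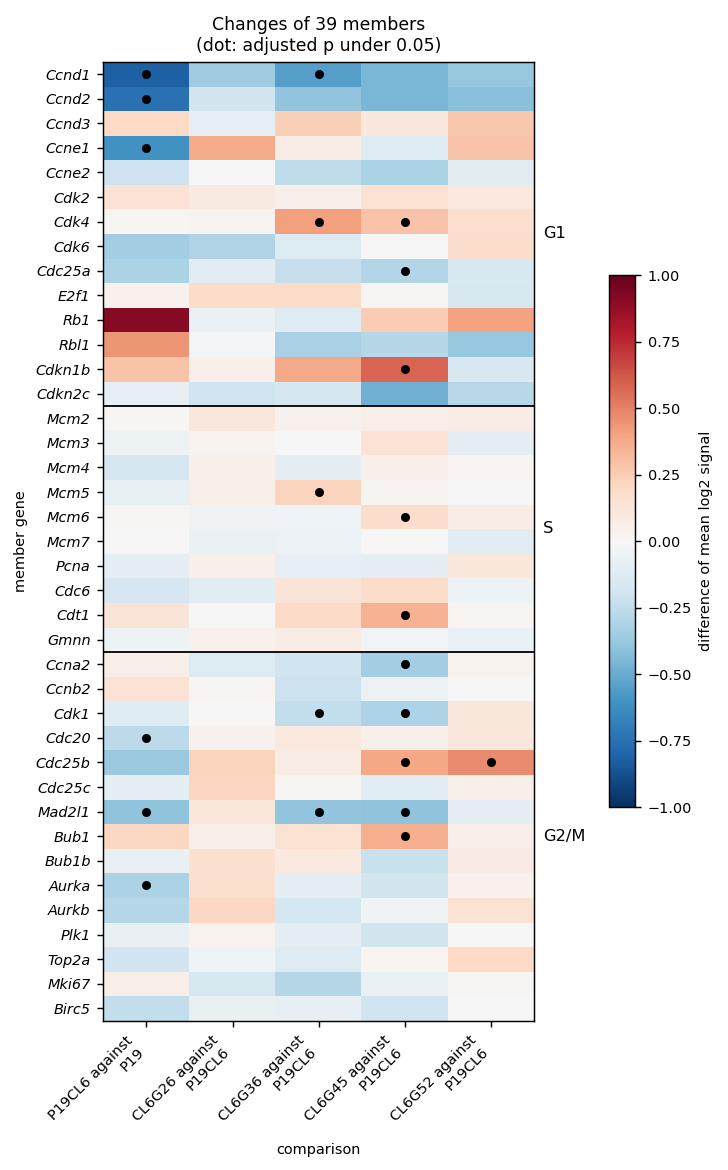
Differences of mean log2 signal for the 39 members (rows, by phase) in the 5 comparisons (columns), 5 arrays per strain; red is higher and blue lower in the first-named strain, and a dot marks an adjusted p under 0.05. The darkest cells are G1 genes in P19CL6 against P19, with Ccnd1 at -0.82, Ccnd2 at -0.75 and Rb1 at 0.91, the last not called; most S rows are pale.

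**Figure D2:**
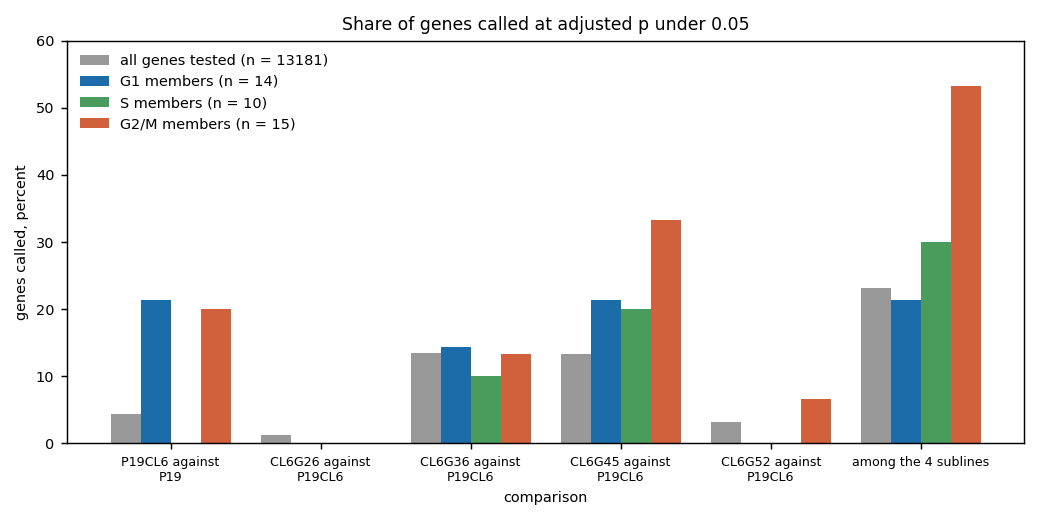
Percent of genes called at an adjusted p under 0.05 in each comparison, for all 13181 genes tested (grey), 14 G1, 10 S and 15 G2/M members; a missing bar is 0. The G2/M members reach 53.3% among the 4 sublines, where all genes are at 23.2%.

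Cyclins D1 and D2, the regulatory partners of CDK4 and CDK6 that respond to growth signals, were lower in P19CL6, but the P19 arrays did not form a single group. The 5 P19 arrays gave Ccnd1 (probe set 1448698_at) values of 8.39, 8.57, 8.49, 7.30 and 7.36 in order of replicate, and those of P19CL6 7.01, 7.03, 7.42, 7.26 and 7.31. Replicates 1 to 3 of P19 lay above every P19CL6 array, while replicates 4 and 5 lay within their range. The mean was 8.02 ± 0.63 (SD, n = 5) in P19 and 7.21 ± 0.18 in P19CL6, and Ccnd1 fell by 0.82 (SE 0.19, limma adjusted p = 0.0125). The other 2 tested Ccnd1 probe sets also fell, by 0.61 and 0.90.

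Ccnd2 (1416122_at) showed the same split, with P19 values of 8.93, 8.97 and 8.82 on the first 3 arrays and 7.85 and 7.90 on the last 2, where P19CL6 spanned 7.57 to 7.92. It fell by 0.75 (SE 0.16, limma adjusted p = 0.0122), and its other 4 tested probe sets were also lower, 2 of them called. Ccnd3, the third D cyclin, was not called and ran the other way, at 8.33 ± 0.13 in P19 and 8.53 ± 0.11 in P19CL6 (SD, n = 5).

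Cyclin E1, which activates CDK2 at entry into S phase, followed D1 and D2. For Ccne1 (1416492_at) P19 replicates 1 to 3 gave 8.88, 8.89 and 8.74, replicates 4 and 5 gave 7.88 and 7.83, and P19CL6 spanned 7.69 to 8.0. It fell by 0.60 (SE 0.16, limma adjusted p = 0.0278). It lost the call under 11 of 22 alternatives, among them leaving out P19CL6 replicate 2, 3 or 5 alone. Its second tested probe set, on MOE430B (1441910_x_at), did not show this: 8.88 ± 0.13 in P19 and 8.86 ± 0.11 in P19CL6 (SD, n = 5), a difference of -0.02 with a limma adjusted p = 0.988. The P19 arrays of that probe set, from 8.70 to 9.03, were not split.

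Rb1, the retinoblastoma pocket protein that D cyclin kinases inactivate, moved opposite to the cyclins among the P19 arrays. The first 3 P19 arrays gave 3.11, 3.33 and 3.19, under the floor of 4.61, and the last 2 gave 5.15 and 4.75, above it. P19CL6 lay at 4.48 to 5.25, with 3 of 5 arrays above the floor. The difference was 0.91 and not called (limma adjusted p = 0.0814); with signals raised to the floor it was 0.12, so most of its size lies in signals under the floor. The related pocket protein Rbl1 was also not called on its main probe set, at 6.60 ± 0.37 in P19 and 7.04 ± 0.09 in P19CL6 (SD, n = 5); its probe set 1425166_at was higher by 0.77 (limma adjusted p = 0.0212), with P19 replicates 1 to 3 at 4.15, 3.89 and 4.37, under the floor, and replicates 4 and 5 at 5.16 and 4.81, so the size of this difference also lies partly in signals under the floor.

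Mad2l1, the spindle checkpoint protein that holds back CDC20, was the only one of the 39 members whose P19 and P19CL6 arrays did not overlap. Over all genes tested, called or not, 2.23% did not overlap, a share near that of the members. The lack of overlap is therefore not read as a result about members. It read 9.46, 9.29, 9.35, 9.09 and 9.28 in P19 and 8.93, 8.87, 8.86, 8.80 and 8.98 in P19CL6. It fell by 0.41 (SE 0.09, limma adjusted p = 0.0122), and its P19 replicates 4 and 5 lay with the other three above P19CL6.

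Aurka, a kinase of centrosomes and spindle poles, was at 9.25, 9.25 and 9.26 on the first 3 P19 arrays, 9.06 and 8.93 on the last 2, and 8.73 to 8.93 in P19CL6. It fell by 0.32 (SE 0.08, limma adjusted p = 0.0152). Cdc20, the activator of the anaphase-promoting complex, was at 10.43, 10.47 and 10.39 on the first 3 P19 arrays and 10.05 and 10.06 on the last 2, and fell by 0.26 (SE 0.08, limma adjusted p = 0.0430). It lost the call under 14 of 22 alternatives, among them no filter, no trend and leaving out P19CL6 replicate 1, 2, 3 or 4 alone. P19CL6 arrays reached 10.14 for Cdc20, above P19 replicates 4 and 5. Birc5, a member of the chromosomal passenger complex, was not called (adjusted p = 0.139) but had the same split, at 9.94, 9.98 and 9.85 against 9.44 and 9.42.

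**Figure D3:**
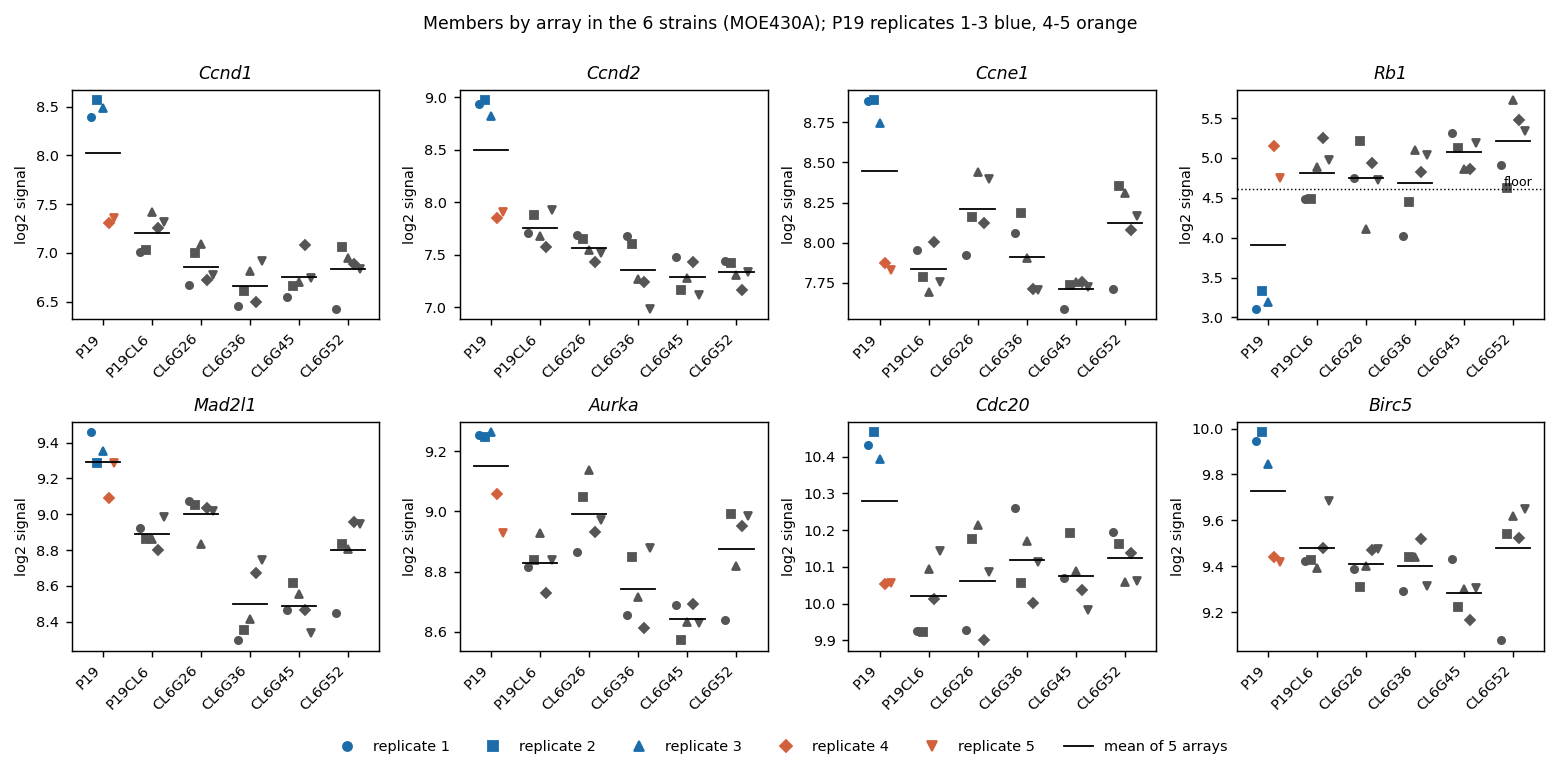
Log2 signal on each MOE430A array of 8 members in the 6 strains; marker shape gives the replicate number, P19 replicates 1 to 3 are blue and 4 and 5 orange, and the line is the mean of 5 arrays. For Mad2l1 all P19 points lie above P19CL6; for Ccnd1, Ccnd2 and Ccne1 the orange points sit at the level of P19CL6, and for Rb1 the blue points are lowest. Each axis has its own range.

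The calls of this comparison, of members and of all genes alike, need P19 replicates 1, 2 and 3. Without any 1 of them limma called 0 of the 13181 genes, and so 0 members, with 12, 12 and 13 members at an unadjusted p under 0.05. With all arrays, 14 members and 2617 of the 13181 genes were under it. The share of all genes under it was not counted in the fits with arrays left out. Without all 3, limma also called 0 genes, with 2 members at an unadjusted p under 0.05. The difference was then -0.30 for Mad2l1 and -0.16 for Aurka, but -0.13 for Ccnd1, -0.13 for Ccnd2, -0.01 for Ccne1 and -0.03 for Cdc20. Calls of Ccnd1, Ccnd2, Mad2l1 and Aurka were each lost under 7 of 22 alternatives, and those of Ccne1 and Cdc20 under more. Without P19 replicates 4 and 5, 16 members were called, 12 lower and 4 higher, beside 19.6% of all genes. The 6 stayed among them, with Ccnd1 at -1.28, Ccnd2 at -1.16 and Ccne1 at -1.0, and Birc5 (-0.44), Cdc25a (-0.49), Cdc25b (-0.53), Cdk6 (-0.61), Mcm4 (-0.27) and Top2a (-0.29) joined them, while Rb1 (1.60), Rbl1 (0.63), Bub1 (0.28) and Ccnb2 (0.26) were higher. Without P19 replicate 4 or 5 alone, 13 and 12 members were called, beside 11.1% and 11.4% of all genes. On MOE430A, the ratio of 3′ to 5′ Gapdh control signals lay between 0.908 and 0.954 in P19 and, without overlap, between 0.835 and 0.887 in P19CL6; on MOE430B the values, 0.815 to 0.917 and 0.829 to 0.878, overlapped. Its part in these changes was not tested.

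In CL6G36 and in CL6G45 Cdk4 rose against the shared P19CL6 arrays, and Cdk1 and Mad2l1 fell. Cdk4, the G1 kinase that D cyclins activate, read 9.99 to 10.25 in P19CL6, 10.45 to 10.73 in CL6G36 and 10.35 to 10.60 in CL6G45. Neither subline overlapped P19CL6, and Cdk4 rose by 0.41 (SE 0.07, limma adjusted p = 4.90e-05) and 0.29 (SE 0.07, adjusted p = 0.00286). Its other 2 tested probe sets were higher in both, called 2 of 2 times in CL6G36 and 1 of 2 in CL6G45. In CL6G26 (10.06 to 10.29) and CL6G52 (10.26 to 10.45) Cdk4 was not called.

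Cdkn1b, the inhibitor p27 that restrains cyclin E with CDK2, rose in CL6G45 by 0.59 (SE 0.15, limma adjusted p = 0.00685). Its arrays there read 6.80, 6.96, 6.81, 6.59 and 6.81, all above the P19CL6 arrays at 6.38, 6.52, 5.93, 6.02 and 6.20. CL6G36 lay between, at 6.59 ± 0.24 (SD, n = 5), and was not called against P19CL6. CL6G52, at 6.06 ± 0.31, was lower than CL6G45 by 0.74 (SE 0.15, adjusted p = 0.00125), the largest range among the sublines of the members that passed the F test below.

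Ccnd1 fell further in CL6G36, by 0.55 (SE 0.19, limma adjusted p = 0.0369), from 7.21 ± 0.18 in P19CL6 to 6.66 ± 0.20 (SD, n = 5). The call was lost under 9 of 20 alternatives. Its probe set 1417419_at fell more firmly, by 0.95 in CL6G36 (adjusted p = 9.39e-05) and by 0.78 in CL6G45 (adjusted p = 0.00104), with no overlap with P19CL6 in either; on the main probe set the difference in CL6G45 was not called. Cdc25a, the phosphatase that activates CDK2, fell in CL6G45 by 0.30 (adjusted p = 0.0454), from 8.16 to 8.63 in P19CL6 to 7.73 to 8.24, with overlap, and lost the call under 12 of 20 alternatives.

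Of the S-phase members, Cdt1, which loads the MCM helicase on origins, rose in CL6G45 by 0.35 (SE 0.08, limma adjusted p = 0.00146). It read 10.83, 10.58, 10.64, 10.97 and 10.79 there, and 10.48, 10.58, 10.37, 10.21 and 10.42 in P19CL6. Its probe set 1424144_at was higher in CL6G45 by 0.34 (adjusted p = 0.00657) and in CL6G36 by 0.38 (adjusted p = 0.00251), the latter not called on the main probe set. Mcm5 in CL6G36 (0.22, adjusted p = 0.0311) and Mcm6 in CL6G45 (0.18, adjusted p = 0.0468), subunits of that helicase, rose by less, and these calls were lost under 9 and 14 of 20 alternatives. Their other tested probe sets were not called. Those of Mcm5 were at 0.12 and 0.31 in CL6G36 (adjusted p = 0.663 and 0.746) and that of Mcm6 at 0.05 in CL6G45 (adjusted p = 0.785). Gmnn, the inhibitor of Cdt1, was not called in any comparison.

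Among G2/M members, Cdk1, the kinase that drives mitosis, fell by 0.24 in CL6G36 (SE 0.07, limma adjusted p = 0.00947) and by 0.31 in CL6G45 (adjusted p = 0.00126). It read 9.69, 9.76, 9.73, 9.81 and 9.79 in CL6G45 and 9.88 to 10.22 in P19CL6, with no overlap. Ccna2, cyclin A2 and a partner of Cdk1, fell in CL6G45 by 0.34 (SE 0.07, adjusted p = 0.00107), from 9.79 to 10.07 to 9.42 to 9.70, again with no overlap. Its probe set 1417910_at was at -0.26 there and not called (adjusted p = 0.0981), nor was it by the F test below (adjusted p = 0.0710). Mad2l1 fell by 0.39 in CL6G36 (adjusted p = 0.00250) and by 0.40 in CL6G45 (adjusted p = 0.00226), with every array of both sublines, at most 8.74 and 8.62, below the lowest P19CL6 array at 8.80.

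Not all mitotic genes went down. Bub1, the checkpoint kinase, rose in CL6G45 by 0.36 (SE 0.09, limma adjusted p = 0.00480), from 9.30 to 9.60 in P19CL6 to 9.74 to 9.94. Cdc25b, a phosphatase that activates Cdk1, rose in CL6G45 by 0.38 (adjusted p = 0.0246), with overlapping arrays and the call lost under 6 of 20 alternatives, and in CL6G52 by 0.47 (SE 0.12, adjusted p = 0.0190). In CL6G52 it read 6.70, 6.94, 6.94, 6.84 and 6.77, above P19CL6 at 6.14 to 6.58, and it was the only member called there; without P19CL6 replicate 5 the change was 0.41 and not called (adjusted p = 0.0645). Without that same array, the count for CL6G36 fell from 5 to 3.

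**Figure D4:**
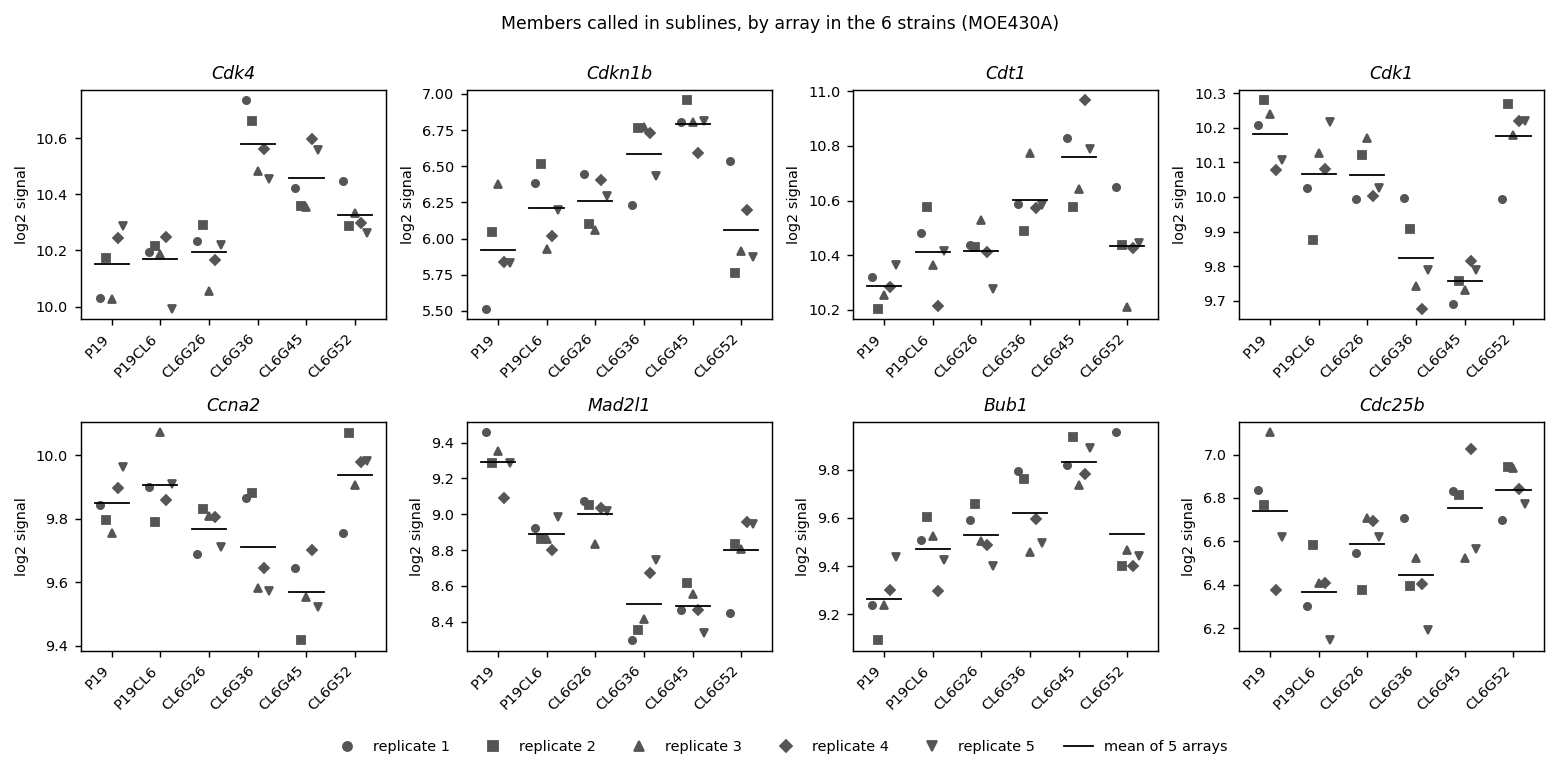
Log2 signal on each MOE430A array of 8 members called in sublines, in the 6 strains; marker shape gives the replicate number and the line the mean of 5 arrays. CL6G36 and CL6G45 sit above P19CL6 for Cdk4 and below it for Mad2l1, and CL6G52 lies near P19CL6 for Cdk1 and Ccna2; each axis has its own range.

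Cdk6, the second kinase of the D cyclins, was read by rule on a dim MOE430A probe set (1460291_at), above the floor on 20 of 30 arrays, and was not called there. Its 2 probe sets on MOE430B were above the floor on all 30 arrays, and both were lower in CL6G26; they were singled out after their values were seen. Probe set 1435338_at read 6.90, 6.56, 7.06, 6.86 and 6.81 in CL6G26 and 7.87, 7.65, 7.68, 7.68 and 7.50 in P19CL6. Probe set 1455287_at read 6.58, 6.69, 6.33, 6.67 and 6.53 in CL6G26 and 7.67, 7.80, 7.40, 7.48 and 7.40 in P19CL6. All 5 CL6G26 arrays lay below all P19CL6 arrays on both.

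The falls were 0.84 (SE 0.11, limma adjusted p = 1.64e-05) and 0.99 (SE 0.11, adjusted p = 5.24e-07). They kept their calls on the deposited scaling, at -0.97 and -1.11 (adjusted p = 0.00276 and 0.000539), and without any single P19CL6 or CL6G26 array, with the highest adjusted p at 0.000183. CL6G36, CL6G45 and CL6G52 exceeded CL6G26 by 1.02, 1.05 and 1.04 on the first probe set and by 1.17, 1.20 and 1.16 on the second, each over 2-fold with no overlap. On the MOE430A probe set the change in CL6G26 was -0.30 (adjusted p = 0.611), with 4 of 5 of its arrays under the floor. Cdk6 on MOE430B was not called in P19CL6 against P19, at -0.03 and -0.15.

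**Figure D5:**
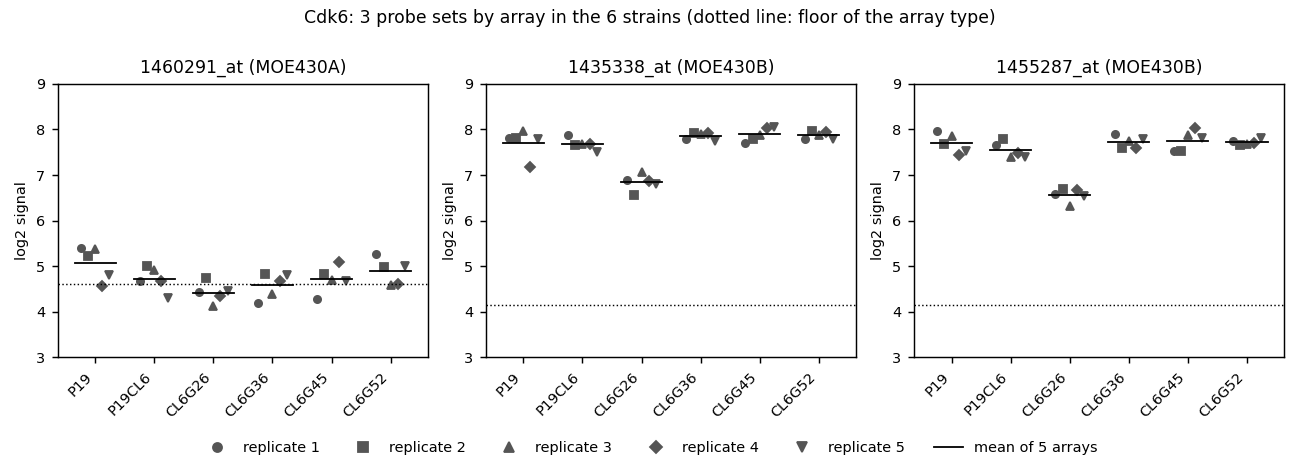
Log2 signal of 3 Cdk6 probe sets on each array of the 6 strains; marker shape gives the replicate number, the solid line is the mean of 5 arrays and the dotted line the floor of the array type. CL6G26 is lowest on both MOE430B probe sets, with means of 6.84 and 6.56 against 7.68 and 7.55 in P19CL6, while the MOE430A probe set lies around its floor.

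Compared among themselves, without P19CL6, the sublines differed for 14 of 39 members in a moderated F test, beside 23.2% of all genes. Of the 35 members above the floor on all arrays it was 40%, beside 31.8% of all such genes, with no test of these shares. The members called were 3 of 14 G1 members (Ccnd3, Cdk4, Cdkn1b), 3 of 10 S members (Mcm6, Pcna, Cdt1) and 8 of 15 G2/M members (Ccna2, Cdk1, Cdc25b, Mad2l1, Bub1, Bub1b, Aurka and Top2a). The call of Cdc25b (limma adjusted p = 0.0422) was lost under 16 of 29 alternatives, that of Ccnd3 under 4 and that of Bub1 under 3. Those of Bub1b, Mcm6 and Top2a were lost under 2 each. Those of Aurka, Ccna2, Cdk4, Cdkn1b, Cdt1 and Pcna were lost under 1, the deposited scaling. Ranges of their subline means ran from 0.19 for Pcna to 0.74 for Cdkn1b. Cdk1 (range 0.42, limma adjusted p = 2.36e-05) and Mad2l1 (0.51, adjusted p = 7.90e-05) came first.

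In pairs, most differences separated CL6G36 and CL6G45 from CL6G26 and CL6G52. Of the 39 members, 12 differed between CL6G45 and CL6G26 (beside 13.2% of all genes), 7 between CL6G36 and CL6G26 (14.1%), 11 between CL6G52 and CL6G36 (13.1%) and 11 between CL6G52 and CL6G45 (11.1%). Only 2 differed between CL6G45 and CL6G36, beside 3%, and 2 between CL6G52 and CL6G26, beside 4.31%.

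Mad2l1 ordered the sublines as CL6G26 (9.0 ± 0.10), CL6G52 (8.80 ± 0.21), CL6G36 (8.50 ± 0.20) and CL6G45 (8.49 ± 0.11; SD, n = 5). Both of the former exceeded both of the latter in limma, and CL6G36 and CL6G45 did not differ beyond their spread. CL6G52 replicate 1, at 8.45, lay at the level of CL6G36 and CL6G45, while the other four CL6G52 arrays read 8.80 to 8.96; without that replicate the F test called 20 members in place of 14, and 27.2% of all genes in place of 23.2%. Cdk1 was higher in CL6G52 than in CL6G45 by 0.42 (adjusted p = 9.57e-05) and than in CL6G36 by 0.35 (adjusted p = 0.000340). Ccna2 followed, higher in CL6G52 than in CL6G45 by 0.37 (adjusted p = 0.000689), and Pcna, the sliding clamp of replication forks, by 0.19 (adjusted p = 0.00489), with no overlap for either.

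Top2a, the topoisomerase that untangles chromosomes, was higher in CL6G52 than in CL6G36 by 0.32 (adjusted p = 0.00107), with arrays at 10.70 to 11.04 against 10.43 to 10.57. Bub1b, the checkpoint protein BubR1, was lowest in CL6G45, at 8.69 ± 0.22 against 9.08 ± 0.10 in CL6G26 (SD, n = 5; difference -0.38, adjusted p = 0.00194). Its MOE430B probe set 1447363_s_at, above the floor on all 30 arrays, was not called by the F test (range 0.29, adjusted p = 0.153). Aurka was also lower in CL6G45 than in CL6G26, by 0.35 (adjusted p = 0.00173), while Bub1 was higher by 0.30 (adjusted p = 0.0172). Ccnd3 was higher in CL6G52 than in CL6G26 by 0.36 (adjusted p = 0.0299), with overlapping arrays.

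E2f1, the transcription factor released by pocket proteins, was not called on its main probe set in the 5 comparisons or by the F test. Its strain means ran from 6.82 in CL6G52 to 7.17 in CL6G36. Between these sublines E2f1 was among 3 of 14 G1 members called lower in CL6G52, beside 983 of the 13181 genes called lower and 13.1% called in either direction. A dimmer E2f1 probe set (1417878_at), above the floor on 25 of 30 arrays, was higher in CL6G36 by 0.99 (SE 0.25, limma adjusted p = 0.00441), with 5.45 to 6.28 there and 3.87 to 5.30 in P19CL6, the lowest of these under the floor. In all, 35 further probe sets of 22 members were tested, and 16 were called in at least 1 of the 5 comparisons. The share of all probe sets called in at least 1 of the 5 was not counted, so the 16 are not read as a result about members.

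Calls between pairs of sublines, such as that of E2f1 above, are left out of the following count. It takes only the probe set read by rule. Of the 39 members, 19 were called in no subline against P19CL6, not in P19CL6 against P19 and not by the F test. In G1 these were Ccne2, Cdk2, Cdk6, E2f1, Rb1, Rbl1 and the inhibitor Cdkn2c, of which Ccne2, Cdk6, Rb1 and Cdkn2c lay near the floor, above it on 24, 20, 22 and 19 arrays. In S they were Mcm2, Mcm3, Mcm4, Mcm7, Cdc6 and Gmnn, with ranges of strain means from 0.12 for Mcm7 to 0.28 for Cdc6, the licensing ATPase. Mcm7 probe sets 1416031_s_at and 1416030_a_at were called by the F test, with subline ranges of 0.26 and 0.35 (limma adjusted p = 0.00400 and 0.0346). Mcm7 probe set 1439269_x_at was not (adjusted p = 0.133). In G2/M they were Ccnb2, Cdc25c, Aurkb, Plk1, Mki67 and Birc5, with ranges from 0.23 for Ccnb2 to 0.46 for Aurkb. A brighter Aurkb probe set, 1424128_x_at, was called in P19CL6 against P19 (-0.32, limma adjusted p = 0.0469) and by the F test (adjusted p = 0.0467). Mki67, a widely used proliferation marker, ran from 8.98 in CL6G36 to 9.28 in CL6G52, with a largest SD of 0.25 within a strain.

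Other genes of the pathway were taken from 3 lists, with 113 tested. Of 17 further G1 genes and inhibitors, 6 were called in CL6G36 and 4 in CL6G45; of 44 replication genes, 8 and 6; and of 52 mitosis genes, 9 and 11. Over all 113, 8 rose and 15 fell in CL6G36 (20.4%, beside 13.5% of all genes) and 6 rose and 15 fell in CL6G45 (18.6%, beside 13.3%). Both shares are near the 18.8% and 18.3% of genes above the floor on all arrays. In P19CL6 against P19, 4 were called, 1 higher (Rpa1) and 3 lower (E2f7, Tk1 and Foxm1), beside 4.46% of all genes, and like all others of that comparison these calls were lost without P19 replicate 1, 2 or 3. In CL6G26 and CL6G52, 2 and 1 were called, beside 1.24% and 3.18%. The F test called 41 of 113, 36.3%, beside 23.2% of all genes and 31.8% of those above the floor on all arrays, to which the 113 were again not limited.

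Cdkn1a, the inhibitor p21, fell in CL6G45 from 7.58 ± 0.28 to 6.27 ± 0.22 (SD, n = 5), by 1.32 (limma adjusted p = 0.000197), opposite in direction to Cdkn1b in the same subline. E2f4, a repressive E2F, fell in CL6G36 and CL6G45 by 0.35 and 0.36 (adjusted p = 0.00860 and 0.00758). Cdkn2d, an inhibitor of CDK4 and CDK6, rose in CL6G26 by 0.37 (adjusted p = 0.0438) and in CL6G36 by 0.35 (adjusted p = 0.0133). E2f7, an atypical repressor, fell in P19CL6 against P19 by 0.74 (adjusted p = 0.0405). In CL6G36, E2f8 rose by 0.39 and Cks2, a small subunit of cyclin-dependent kinases, fell by 0.32, and in CL6G45 Tfdp2, a partner of E2F, rose by 0.51 and Cks1b by 0.15.

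Tk1, thymidine kinase, fell in P19CL6 against P19 by 0.44, and against P19CL6 by 0.55 in CL6G26 and 0.64 in CL6G45 (limma adjusted p = 0.0282, 0.0101 and 0.000373). Rrm1, a subunit of ribonucleotide reductase, fell in CL6G45 by 0.60 (adjusted p = 0.000484), while Timeless, a fork protection factor, rose by 0.31. In CL6G36 the DNA polymerase delta subunits Pold2 and Pold1 rose by 0.41 and 0.32, and Wdhd1 and Dut fell by 0.46 and 0.48. Rpa1, of the single-strand binding complex, rose in P19CL6 against P19 by 0.62 (adjusted p = 0.0122), with overlapping arrays.

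Cenpf, a kinetochore protein, fell in CL6G36 from 9.20 ± 0.05 to 7.93 ± 0.07 (SD, n = 5), by 1.26 (limma adjusted p = 2.29e-13). Pkmyt1, which inhibits Cdk1, rose in CL6G36 by 0.96 and in CL6G45 by 0.91 (limma adjusted p = 1.02e-05 and 2.86e-05). Cdk1 signals fell in the same sublines, and a relation between these changes was not tested. Cenpk fell in CL6G36 by 0.59, and Pttg1 and Spc25 fell in CL6G45 by 0.39 and 0.51; Anapc1 rose in CL6G36 by 0.24 and Nusap1 in CL6G45 by 0.35. Foxm1, a transcription factor of G2/M genes, fell in P19CL6 against P19 by 0.49 (adjusted p = 0.0341), with overlapping arrays, and Kif20a rose in CL6G52 by 0.32 (adjusted p = 0.0349).

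Members of a phase did not move closely together within strains. Over the 30 MOE430A arrays, as deviations from strain means, the median Pearson r was -0.06 over 91 pairs of G1 members, 0.03 over 45 pairs of S members and 0.07 over 105 pairs of G2/M members, beside 0.00 over pairs of all genes read on that array. The pair most alike was Ccnd1 and Ccne1 at 0.76, and Ccnd2 and Rb1 were at -0.80; the arrays share normalization, and these deviations include the split of the P19 replicates. All of this is description, with no test.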

How the data were processed

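Transcript levels were measured in 6 embryonal carcinoma strains with 5 biological replicates each on 2 Affymetrix array types. The authors deposited intensities, which are GCOS signals of probe sets on a linear scale (GCOS per the submitters' processing notes, without a version). CEL files were not used here. RNA was labelled with a two-cycle kit, per the labels' protocols.

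The 64 control probe sets of each type were left out, arrays were quantile normalized within a type, and log2 of each signal was taken after raising those below 1 to 1. A probe set was tested if above the floor (40th percentile on MOE430A, 60th on MOE430B) on at least 5 of 30 arrays. Symbols come from the platform annotation. A gene was read from its brightest tested probe set, MOE430A before MOE430B, x_at last. Tests used limma 3.58.1 in R 4.3.3 (group means, eBayes with trend, 24 residual degrees of freedom), two-sided, with Benjamini-Hochberg adjustment over all probe sets tested in a type. The script was tested on simulated data. The number of arrays limits the precision. Alternatives were another scaling, filters, probe set readings, no trend, a replicate block, only the groups compared and samples left out; leaving out P19 replicates 1 to 3 and reading MOE430B first were chosen after seeing the data.

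Members, phase lists, pathway lists and markers were chosen with earlier results of these data known. Members called are given by array, the rest by range; of each pathway list, up to 2 genes higher and 2 lower with the smallest adjusted p in a comparison are named. Probe sets beyond the one read by rule were described after their values were seen.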

Additional observations from a re-analysis of the deposited data

Results flagged for a closer look

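In each strain a member's 5 values were searched for a sample whose gap to its nearest neighbour took over 0.71 of the strain's range. Chance gives about 1 in 20 groups; 15 of 234 were found, and no explanation was tested. In CL6G52, replicate 1 was apart for Rbl1 (6.131), Bub1 (9.955) and Birc5 (9.076), and replicate 3 for Ccnd3 (8.454). In CL6G45, replicate 1 was lowest for Ccne1 (7.591), and replicate 4 was apart for Cdk2 (7.722) and Cdc25c (5.347). In CL6G26, replicate 3 was apart for Mcm2 (10.144) and Mad2l1 (8.835), and replicate 2 for Mcm3 (10.02). In CL6G36, replicate 1 was apart for Mcm3 (10.047) and replicate 2 for Cdc6 (8.592). In P19CL6, replicate 5 was lowest for Cdk4 (9.993). In P19, replicate 5 was lowest for Mcm6 (10.036) and replicate 3 highest for Mcm7 (11.847). The split of P19 replicates 1 to 3 from 4 and 5 is of a kind this search does not find.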

How the results depend on the processing

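Of the 22 called member changes in the 5 comparisons, which have a sign, 0 changed it under the alternatives run; of all 36 calls, F test included, 2 (Cdk1 and Mad2l1 among the sublines) held under all of them. On the deposited scaling 0 members were called in P19CL6 against P19, CL6G36, CL6G45 and CL6G52, and 2 among the sublines, where 9.25% of all genes were called; leaving that setting aside, 3 of 5 calls in CL6G36 (Cdk1, Cdk4, Mad2l1), 7 of 10 in CL6G45 (Bub1, Ccna2, Cdk1, Cdk4, Cdkn1b, Cdt1, Mad2l1), 8 of 14 among the sublines and 0 of 6 in P19CL6 against P19 held throughout. Fitted with only the groups compared, the counts were 0 in P19CL6 against P19, where 0 of the 13181 genes were called and 13 members had an unadjusted p under 0.05, 10 in CL6G36 (14.7% of all genes) and 2 in CL6G52 (1.91%). The mean of a gene's probe sets gave 8 in CL6G36 (13.6% of all genes). With MOE430B read first, CL6G26 had 1 (Cdk6), beside 1.06% of all genes. For P19CL6 against P19 the count was 16 without P19 replicates 4 and 5 (19.6% of all genes), 0 without P19 replicates 1 to 3 (0 genes) and 0 without P19CL6 replicates 1 and 2 (10 genes; 13 members at an unadjusted p under 0.05); the last gave 9 in CL6G36 (11.7%). Leaving out single arrays gave 0 to 13 in P19CL6 against P19, 3 to 7 in CL6G36 (3 without P19CL6 replicate 5, with 11% of all genes) and 0 to 3 in CL6G52 (0 without P19CL6 replicate 5, with 2.15%, and 3 without CL6G52 replicate 3, with 2.47%). Except where a sample is left out, the cause was not tested. All genes at an unadjusted p under 0.05 were counted only in the main fit. With a replicate block the counts were 6, 0, 6, 9 and 1 in the 5 comparisons and 15 among the sublines. Beside these, 4.06%, 1.18%, 13.2%, 12.7%, 2.89% and 22.4% of all genes were called. Arrays of the same number deviated together (r over 0.1) in 1 of 75 pairs on MOE430A and 0 of 75 on MOE430B. The numbers were therefore not taken to pair samples. Signals near the floor limit Ccne2, Cdk6 on MOE430A, Rb1 and Cdkn2c.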
